A study of Ambystoma mexicanum with 198 samples.

Results

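The mitochondrial respiratory chain genes on the axolotl array comprised 64 genes, of 8,639 genes with a symbol. They were taken by gene symbol. The symbols kept were those beginning with *nduf*, *uqcr* or *atp5*, those of cytochrome c oxidase genes numbered 4 to 8 and 10 to 19, the 4 *sdh* subunits, *cyc1* and *cycs*. These genes were measured by 72 probes, and the 8 genes with more than 1 probe were represented by the probe with the highest mean over all arrays. The set held 6 core and 27 accessory subunits of complex I, 4 subunits of complex II and 7 genes of complex III with cytochrome c. It also held 10 genes grouped with complex IV (with *ndufa4* and *cox7a2l*) and 10 assembly factors. No symbol matched *atp5*, so the subunits of ATP synthase were not analysed here.

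The samples were axolotl (*Ambystoma mexicanum*) forelimbs amputated under benzocaine through the middle of the zeugopod, which is the lower forelimb. The distal 1.0 mm of the limb tip was taken at 20 times from 0 to 28 days post amputation (DPA) and hybridized to a custom Affymetrix array, with 10 arrays at each time except 9 at 16 and 9 at 28 DPA. Day 0 was tissue taken at amputation, and all other groups carried the same amputation and no further treatment. The tip is a mixed tissue whose cell types change as the blastema, the bud of progenitor cells, replaces the stump. No label names the animal behind an array, so p-values measured the spread between arrays. The labels give replicates 1 to 5 and replicates 6 to 10 different code letters whose meaning is not given, and these letters switch after 2 DPA and again after 18 DPA (for replicates 6 to 10 also after 9 DPA). Both sets keep their letters from 0 to 2, 3 to 9, 10 to 18 and 20 to 28 DPA, while from 0 to 28 DPA replicates 1 to 5 alone do. Between day 0 and any time from 3 to 18 DPA both sets change letters, so time and letters cannot be told apart there.

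The respiratory chain lies in the inner mitochondrial membrane. Complexes I and II pass electrons from NADH and succinate to ubiquinone, complex III passes them on to cytochrome c, and complex IV, cytochrome c oxidase, gives them to oxygen. The energy released pumps protons across the membrane and drives ATP synthesis. Skeletal muscle is rich in mitochondria, and the genes described here are nuclear genes whose protein products are imported into the organelle.

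The values were log2 intensities, normalized over all arrays by the authors, so they give the level of a transcript relative to the other probes of an array and not its amount per limb. Array medians lay between 5.70 and 5.90, and the lowest correlation between arrays of a time point was 0.962 across probes. The skeletal muscle genes, of which 28 of 38 listed had a probe, were present at day 0, where their mean in an array was 11.95 at the lowest, 12.05 in the middle and 12.40 at the highest. By 18 DPA that mean ran from 4.55 to 5.08. In tissue pieces of this kind, fewer cells of a type and less RNA per cell cannot be told apart.

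The median level of the respiratory chain genes was lower at every later time than in the uninjured limb, and most of the difference was already there within 2 days. The median over the 64 genes was 11.11 in the lowest, 11.47 in the middle and 11.69 in the highest array of day 0. At 0.5 DPA it was 10.76, 11.11 and 11.46, and at 2 DPA it was 10.78, 10.92 and 11.06. The ranges of 0 and 0.5 DPA overlapped, and all 10 arrays of 2 DPA lay below all 10 arrays of day 0.

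At 9 DPA the median over the genes was 10.75 in the lowest, 10.83 in the middle and 10.99 in the highest array, and at 28 DPA it was 10.63, 10.88 and 11.03. The median therefore dropped mostly by 2 DPA and then stayed at nearly the same level for the rest of the time course. Single genes did not all follow it. After 2 DPA *cox17*, *ndufs4* and *cox4i2* fell further, while *ndufs1* lay nearer to day 0 at 28 DPA than at 2 DPA. The median log2 difference from day 0 over the 64 genes was -0.35 at 0.5 DPA and -0.51 at 2 DPA. Its lowest value was -0.58 (at 7 and 10 DPA), and by 28 DPA it was -0.49. Over all 20,035 probes tested the same median ran from -0.01 to 0.07, and over the probes above the 75th percentile of mean intensity, to which 54 of the 64 genes belonged, it was -0.06 at 0.5 DPA and 0.20 at 28 DPA.

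**Figure D1:**
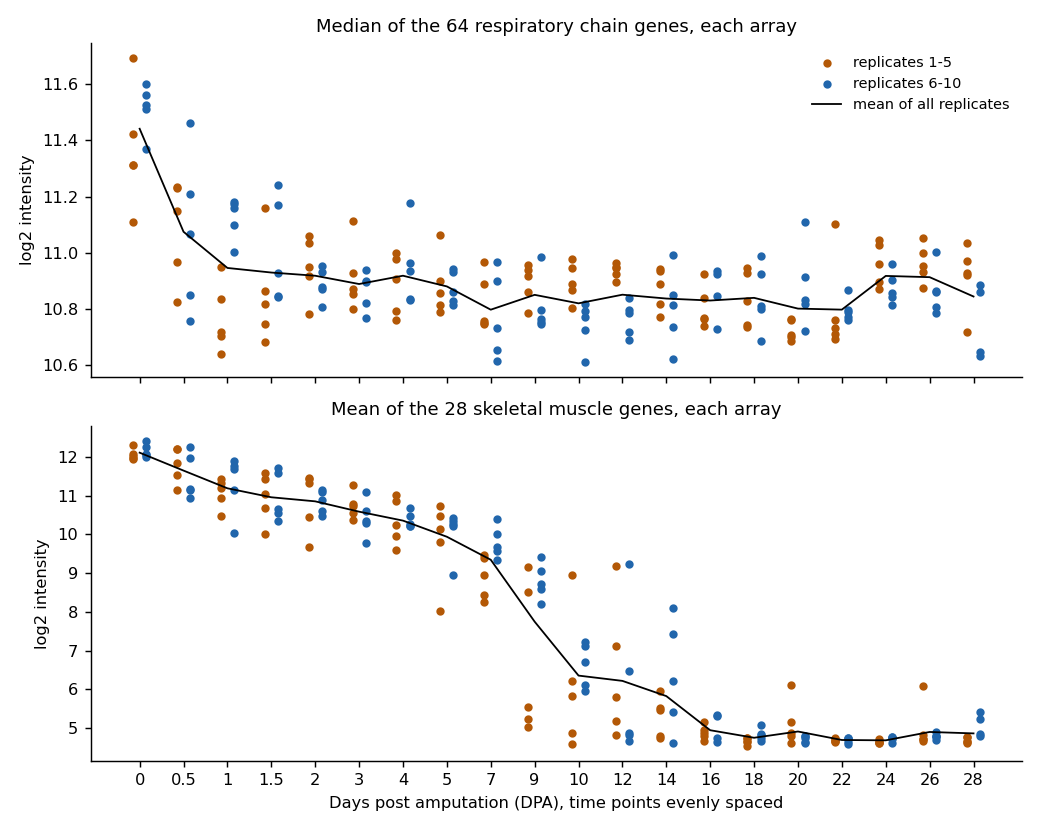
Upper panel, the median log2 intensity of the 64 respiratory chain genes in each array (points) against days post amputation, with the mean of the arrays as a line. Lower panel, the mean log2 intensity of 28 skeletal muscle genes in the same arrays. The respiratory chain median dropped from a mean of 11.44 at 0 DPA to 10.92 at 2 DPA and was 10.84 at 28 DPA, while the muscle genes went on falling until 18 DPA.

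Each later time was compared with day 0 in limma, and calls required an adjusted p (Benjamini-Hochberg) below 0.05 together with a log2 difference of 0.58 or more, a 1.5-fold change. At 0.5 DPA 2 of the 64 genes were called lower, against 1.35% of all probes, and 40 passed on adjusted p alone, against 4.62%. For 2 arrays of 0.5 DPA a label names another time, and without them the counts were again 2 and 40, with a median difference of -0.37. At 1 DPA 8 genes were called lower (4.97% of all probes). The number rose to 23 genes at 2 DPA (7.54%) and 31 genes at 7 DPA (9.17%). From 3 to 18 DPA both replicate sets carry other code letters than on day 0, so time and letters cannot be told apart there. At 10 DPA 31 genes were again called lower, against 9.67% of all probes, and 52 passed on adjusted p alone, against 18.7%. At 28 DPA 26 were called lower (8.31% of all probes) and 50 passed on adjusted p alone (14.6%).

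Over the 19 comparisons 440 of 1,216 results were calls to a lower level and 11 to a higher level, against 8.28% and 9.63% of those for all probes. Of the 64 genes, 35 were called lower at least once, against 17.7% of all probes, and 2 were called higher at least once, against 24.3%. No gene was called in both directions, and 27 were never called. On adjusted p alone 57 genes were lower at least once (37.3% of all probes) and 35 were lower at all 19 times (1.51%), while 5 were higher at least once (51.5%). The gene *cox4i2* was the only member called lower at all 19 times, which held for 0.544% of all probes. These comparisons share the arrays of day 0, so they are not independent of each other.

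By the means of the time points, 52 genes lay below day 0 at all 19 later times and none lay above it at all of them. The share of all probes was not counted for this, and the 19 means were set against the same arrays of day 0. The ranges of the 2 times did not overlap, with the later one lower, for 1 gene at 0.5 DPA (0.285% of all probes), 30 genes at 2 DPA (2.89%) and 33 genes at 28 DPA (5.25%).

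**Figure D2:**
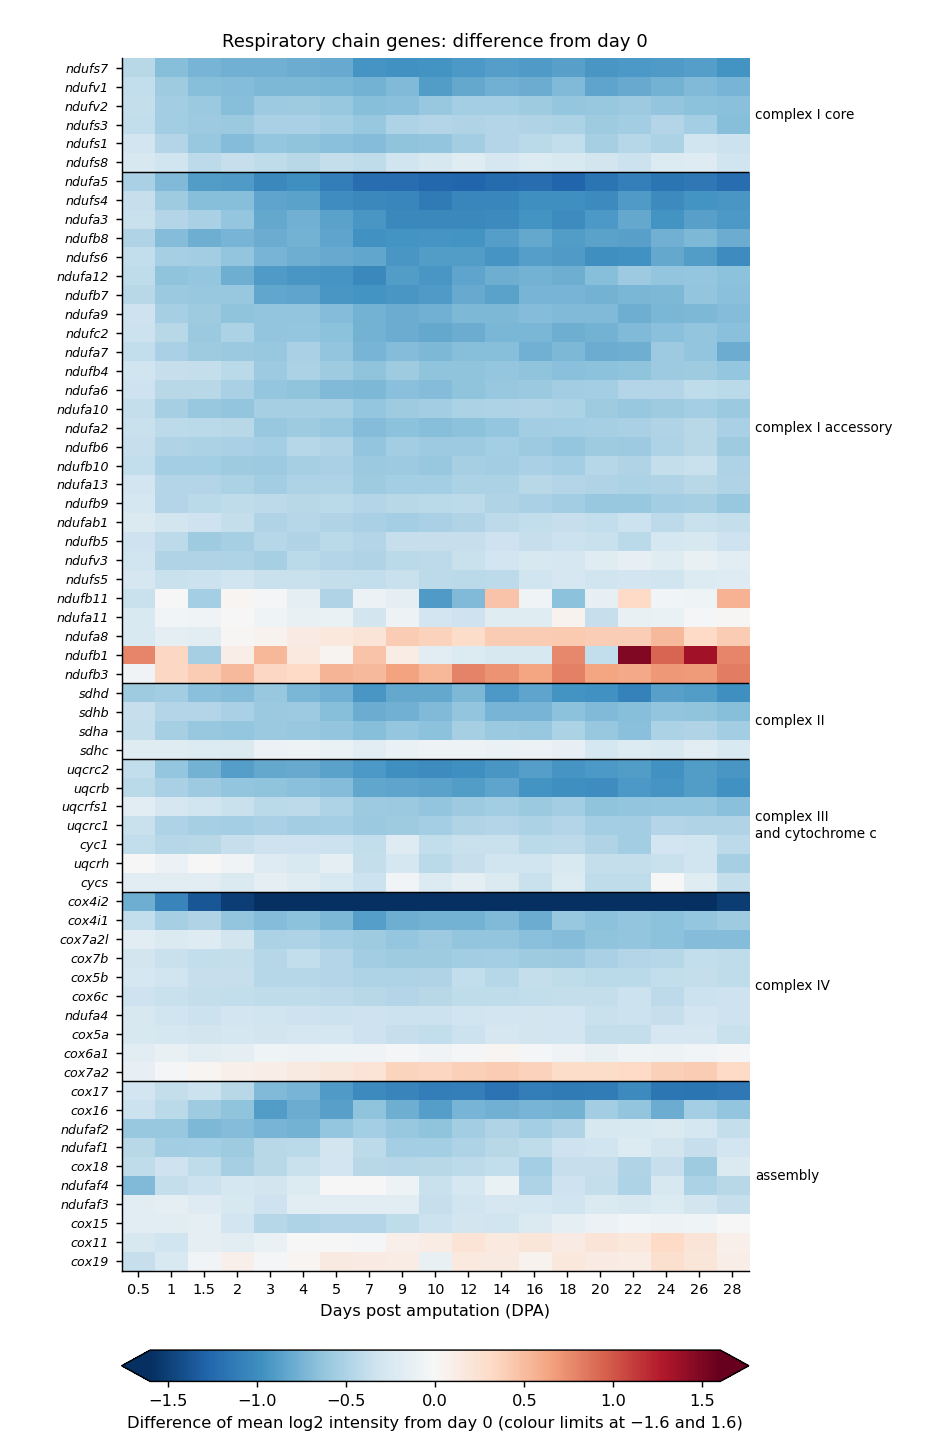
The log2 difference from day 0 of each of the 64 genes (vertical axis, grouped by complex) at 19 times (horizontal axis, DPA), with colour for the difference of the means. Lower values prevail in all groups from 2 DPA on, the lowest being -2.69 for *cox4i2* at 10 DPA, and *ndufb3* and *ndufb1* stand out with values above day 0.

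The early fall was common to the complexes and differed in size. At 2 DPA the median log2 difference from day 0 was -0.69 over the core subunits of complex I, -0.52 over its accessory subunits and -0.57 over complex II. It was -0.36 over complex III with cytochrome c, -0.34 over complex IV and -0.37 over the assembly factors. At 28 DPA these medians were -0.68 for the core of complex I, -0.57 for its accessory subunits and -0.62 for complex II, against -0.53 for complex III, -0.38 for complex IV and -0.34 for the assembly factors. At least 1 call to a lower level was made for 5 of 6 core and 17 of 27 accessory subunits of complex I, 3 of 4 of complex II, 4 of 7 of complex III, 3 of 10 of complex IV and 3 of 10 assembly factors, against 17.7% of all probes. The differences between the complexes were not tested.

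**Figure D3:**
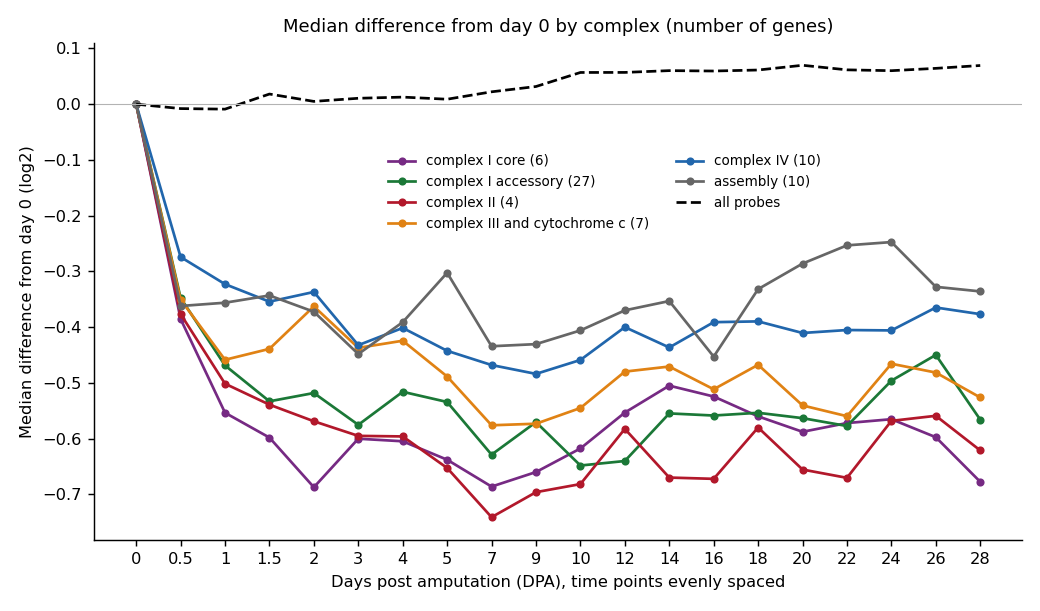
The median log2 difference from day 0 over the genes of each complex (coloured lines) and over all probes (dashed line) against days post amputation. All 6 groups were below 0 at each later time, and the core subunits of complex I and complex II lay lowest at 28 DPA, at -0.68 and -0.62.

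Within the core of complex I, which carries the flavin and the iron-sulfur clusters, all 6 genes passed on adjusted p at 2 DPA (17.2% of all probes) and 5 were called lower (7.54%). The subunit *ndufs7*, which holds the last iron-sulfur cluster before ubiquinone, is given here after its values were seen. It was at 12.55 at the lowest, 12.76 in the middle and 13.03 at the highest on day 0, and at 11.65, 11.95 and 12.23 at 2 DPA. The groups did not overlap, and the log2 difference was -0.77 at 2 DPA and -0.97 at 9 DPA (limma adjusted p = 1.946e-07 at 2 DPA). The flavoprotein subunit *ndufv1*, where NADH is oxidized, had its lowest difference of -0.89 at 10 DPA and was called at 17 times. The core genes *ndufv2*, *ndufs1* and *ndufs3* were called at 12, 8 and 4 times, with lowest differences of -0.68, -0.70 and -0.68. The least moved core gene, *ndufs8*, reached -0.44 at 4 DPA and was not called.

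Among the accessory subunits, which surround the core and are needed for its assembly and stability in mammals, 10 of 27 were called lower at 2 DPA (7.54% of all probes) and 13 at 28 DPA (8.31%). The gene *ndufa5*, of the arm that reaches into the matrix, had the largest fall. Its arrays ran from 10.998 through a median of 11.38 to 12.06 on day 0, and from 10.35 through 10.92 to 11.40 at 0.5 DPA. The log2 difference at 0.5 DPA was -0.51 ± 0.13 (SE, limma adjusted p = 0.0163), short of the fold minimum, and the ranges overlapped.

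At 2 DPA *ndufa5* was at 10.10 at the lowest, 10.43 in the middle and 10.89 at the highest, and no array reached the lowest of day 0. The difference was -0.90 ± 0.11 (SE, limma adjusted p = 2.24e-06). It grew to -1.27 ± 0.09 (SE, limma adjusted p = 4.228e-10) at 18 DPA, where the arrays ran from 9.86 to 10.28, and it was -1.22 at 28 DPA. From 1 DPA on *ndufa5* was called lower at all 18 times.

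The gene *ndufs4*, an accessory subunit whose loss causes Leigh syndrome in humans, was lowest at 10 DPA. It ran from 11.62 through a median of 11.99 to 12.44 on day 0, from 11.03 through 11.32 to 11.61 at 2 DPA and from 10.74 through 10.85 to 10.99 at 10 DPA. Day 0 overlapped neither of the later times. The log2 difference was -0.68 at 2 DPA (limma adjusted p = 3.919e-06) and reached -1.14 ± 0.07 (SE, limma adjusted p = 4.588e-11) at 10 DPA. At 28 DPA the difference was -0.94, and from 10 to 18 DPA the level of *ndufs4* rose by 0.15 on adjusted p alone (limma adjusted p = 0.0111).

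The accessory subunits *ndufa12*, *ndufb7* and *ndufb8* were each called lower at 18 times, with lowest differences of -1.03, -0.96 and -0.97 at 7 DPA. The genes *ndufa3*, *ndufa9*, *ndufc2* and *ndufs6* were called at 16 times each, *ndufa7* at 15, *ndufb4* at 10, *ndufa6* at 9 and *ndufa2* at 7. With 5 calls each for *ndufa10* and *ndufb6* and 3 each for *ndufb9* and *ndufb10*, lower calls were made for 17 accessory genes. Of the accessory genes with no call, *ndufa13*, *ndufab1* and *ndufb5* were lower on adjusted p alone at all 19 times, with lowest differences of -0.57, -0.55 and -0.57. The accessory genes *ndufs5* and *ndufv3* were lower on adjusted p alone at 17 times each and *ndufa11* at 3. The shift of these 6 genes stayed under the 1.5-fold minimum throughout.

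The exceptions in complex I were a few accessory subunits. The gene *ndufb3*, of the membrane arm, was the only member called higher at more than 1 time. Its arrays ran from 5.60 through a median of 6.46 to 7.03 on day 0, from 6.69 through 7.21 to 7.55 at 18 DPA and from 6.85 through 7.09 to 7.71 at 28 DPA. The ranges overlapped, and the medians of both later times lay above the highest array of day 0.

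The difference of *ndufb3* from day 0 was -0.06 at 0.5 DPA and 0.52 at 2 DPA (limma adjusted p = 0.0087, under the fold minimum). It was 0.81 at 18 DPA and 0.82 ± 0.16 (SE, limma adjusted p = 2.667e-04) at 28 DPA. It was called higher at 10 times. At 28 DPA 1 gene of the 64 was called higher, against 10.7% of all probes, and 3 passed on adjusted p alone, against 27.8%. With replicates 6 to 10 alone the difference of *ndufb3* at 28 DPA was 0.53 and was not called.

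The other gene called higher, *ndufb1*, was unlike the rest in its spread. On day 0 its arrays ran from 3.56 through a median of 4.66 to 7.81, and at 22 DPA from 6.27 through 6.94 to 7.98. The difference was 1.48 ± 0.55 (SE, limma adjusted p = 0.0324) at 22 DPA, the only time called against day 0, and 0.78 at 28 DPA (limma adjusted p = 0.3271). Over all times 72 arrays lay below 5.5, with a median of 4.38, and 126 above it, with a median of 6.59, and only 14 lay between 5 and 6.

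The subunit *ndufb11*, named here after its values were seen, had the same kind of spread, with 86 arrays below 5.5 (median 4.60) and 112 above it (median 7.10). Both levels occurred at all 20 times for *ndufb11* and at 19 times for *ndufb1*. For *ndufb11* 56 of the 100 arrays of replicates 1 to 5 and 30 of the 98 of replicates 6 to 10 were on the lower side, and for *ndufb1* 32 and 40. Arrays of a single time point thus fell on both sides, and a mean over 10 arrays of these genes describes few of them. What separates the arrays was not tested.

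**Figure D4:**
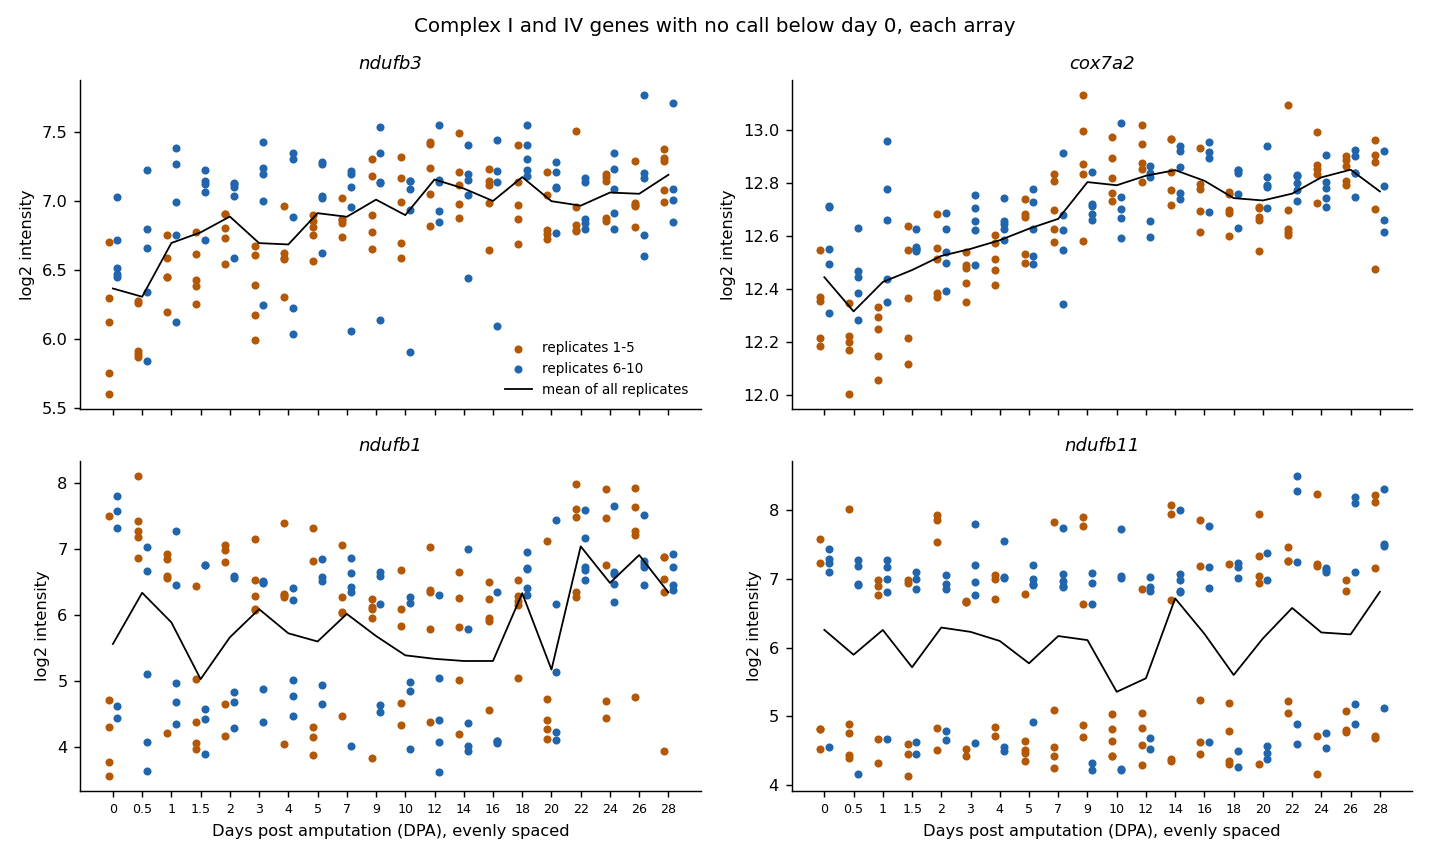
The log2 intensity in each array (points, replicates 1 to 5 and 6 to 10 in different colours) of complex I and IV genes with no call below day 0, against days post amputation, with the mean of the arrays as a line. *ndufb3* moved from a median of 6.46 at 0 DPA to 7.09 at 28 DPA, and *ndufb1* and *ndufb11* fell into a lower and an upper band at nearly all times.

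A further pair of genes, named after their values were seen, lay above day 0 at later times without reaching the fold minimum. The accessory subunit *ndufa8* was higher on adjusted p alone at 11 times, with 0.40 at 28 DPA (limma adjusted p = 0.011). By replicate set that difference of *ndufa8* was 0.81 (replicates 1 to 5) and -0.05 (replicates 6 to 10), so it rests on 1 set. The complex IV subunit *cox7a2* ran from 12.19 through a median of 12.43 to 12.71 on day 0 and from 12.72 through 12.85 to 12.96 at 14 DPA. All arrays of 14 DPA were above those of day 0, and the log2 difference was 0.40 (limma adjusted p = 6.74e-05). On adjusted p alone *cox7a2* was higher at 13 times.

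Complex II, which also works in the citric acid cycle, was lower as a whole, and its membrane anchor *sdhd* fell most. The arrays of *sdhd* ran from 9.10 through a median of 9.79 to 10.34 on day 0, from 8.48 through 9.06 to 9.55 at 2 DPA and from 8.38 through 8.82 to 9.02 at 28 DPA. The ranges of 0 and 2 DPA overlapped, and those of 0 and 28 DPA did not. The log2 difference was -0.57 at 0.5 DPA (limma adjusted p = 0.0243), -0.70 at 2 DPA (9.855e-04) and -0.98 at 28 DPA (1.417e-05), with a lowest value of -1.08 at 22 DPA. By replicate set the difference of *sdhd* at 2 DPA was -0.37 (replicates 1 to 5) and -1.02 (replicates 6 to 10), and at 28 DPA these values were -0.55 and -1.42.

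The iron-sulfur subunit *sdhb* ran from 11.88 through a median of 12.15 to 12.42 on day 0 and from 11.44 through 11.61 to 11.79 at 2 DPA, with no overlap. The difference was -0.52 at 2 DPA (limma adjusted p = 3.736e-06), just under the fold minimum, -0.80 at 7 DPA and -0.68 at 28 DPA (limma adjusted p = 1.804e-07). The flavoprotein *sdha* was called lower at 12 times. The other anchor, *sdhc*, was among the 3 members that moved least, with -0.23 at 2 DPA (limma adjusted p = 0.0308) and a lowest difference of -0.28 at 20 DPA.

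In complex III the core protein gene *uqcrc2* fell most. It ran from 12.49 through a median of 12.66 to 12.81 on day 0 and from 11.89 through 12.28 to 12.62 at 0.5 DPA, where the difference of -0.39 passed on adjusted p alone (limma adjusted p = 0.0063). At 2 DPA it ran from 11.44 through 11.71 to 12.12, with a difference of -0.88 ± 0.07 (SE, limma adjusted p = 4.689e-09). All arrays of 2, 10 and 28 DPA lay below those of day 0, and the difference of *uqcrc2* was -1.003 at 10 DPA and -0.93 at 28 DPA (limma adjusted p = 1.119e-10).

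The ubiquinone-binding subunit *uqcrb* went on falling for longer. Its arrays ran from 12.09 through a median of 12.29 to 12.86 on day 0, from 11.56 through 11.66 to 11.98 at 2 DPA and from 11.22 through 11.37 to 11.57 at 20 DPA. The difference was -0.63 at 2 DPA (limma adjusted p = 7.562e-06), -0.99 at 20 DPA and -0.97 at 28 DPA (limma adjusted p = 3.553e-08). The Rieske iron-sulfur protein *uqcrfs1* was called at 8 times, with -0.67 at 28 DPA, and the other core protein, *uqcrc1*, at 1 time, with -0.60 at 7 DPA. Cytochrome c1, *cyc1*, was lower on adjusted p alone at 18 times and never called, and the hinge protein *uqcrh* was lower on adjusted p alone at 5 times.

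Complex IV held both the member with the largest fall and several that stayed under the fold minimum by the probe used. The gene *cox4i2* encodes the second isoform of subunit 4, which in mammals is expressed mainly in lung and in cells at low oxygen. Its arrays ran from 10.04 through a median of 10.55 to 11.42 on day 0, from 8.96 through 9.93 to 10.79 at 0.5 DPA and from 8.26 through 9.07 to 9.94 at 2 DPA. Day 0 overlapped 0.5 DPA and not 2 DPA.

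The log2 difference of *cox4i2* from day 0 was -0.78 ± 0.23 (SE, limma adjusted p = 0.0408) at 0.5 DPA and -1.502 ± 0.213 (SE, limma adjusted p = 1.055e-05) at 2 DPA. At 10 DPA the arrays ran from 6.77 through 8.05 to 9.01 and the difference was -2.69 ± 0.24 (SE, limma adjusted p = 1.108e-08), the lowest of any member at any time. The level of *cox4i2* at 28 DPA lay above that at 10 DPA, a change that was not tested and crosses a switch of code letters. From 10 to 18 DPA its rise of 0.66 did not pass on adjusted p. At 28 DPA the arrays ran from 8.73 through 8.94 to 9.54, still below all arrays of day 0, and the difference was -1.52 (limma adjusted p = 2.554e-07).

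The main isoform *cox4i1* ran from 9.87 through a median of 10.01 to 10.79 on day 0, from 9.28 through 9.46 to 9.81 at 2 DPA and from 9.25 through 9.64 to 9.77 at 28 DPA. The ranges did not overlap day 0, and the difference was -0.63 at 2 DPA (limma adjusted p = 8.951e-05) and -0.57 at 28 DPA (limma adjusted p = 2.32e-04), with a lowest value of -0.88 at 7 DPA. A second probe of *cox4i1* gave 0.16 at 2 DPA (limma adjusted p = 0.3976) and -0.12 at 28 DPA, so the fall of this gene rests on 1 of its probes.

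The changes of the isoforms were set against each other within each array, over 5 comparisons, with an exact two-sided permutation test over arrays and p adjusted over the 5. The change of *cox4i2* minus that of *cox4i1* was -0.87 from 0 to 2 DPA (adjusted p = 0.001083) and -0.41 from 3 to 9 DPA (adjusted p = 0.01748). It was 0.50 from 10 to 18 DPA (adjusted p = 0.09986), 0.71 from 20 to 28 DPA (adjusted p = 0.01748) and -0.95 from 0 to 28 DPA (adjusted p = 0.000866). *cox4i2* therefore fell further than *cox4i1* from 0 to 2 and from 3 to 9 DPA and gained on it from 20 to 28 DPA. The gain from 10 to 18 DPA did not pass in this setting, and the step from 9 to 10 DPA was not tested.

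The gain of 0.71 on *cox4i1* was 0.32 in replicates 1 to 5 alone, where it missed the threshold by the exact permutation test (adjusted p = 0.2857). The further fall from 3 to 9 DPA was -0.10 in replicates 6 to 10 alone, which missed it too (exact permutation adjusted p = 0.5754). Of the isoform pairs of the chain looked for, this was the only one with a probe for each member.

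**Figure D5:**
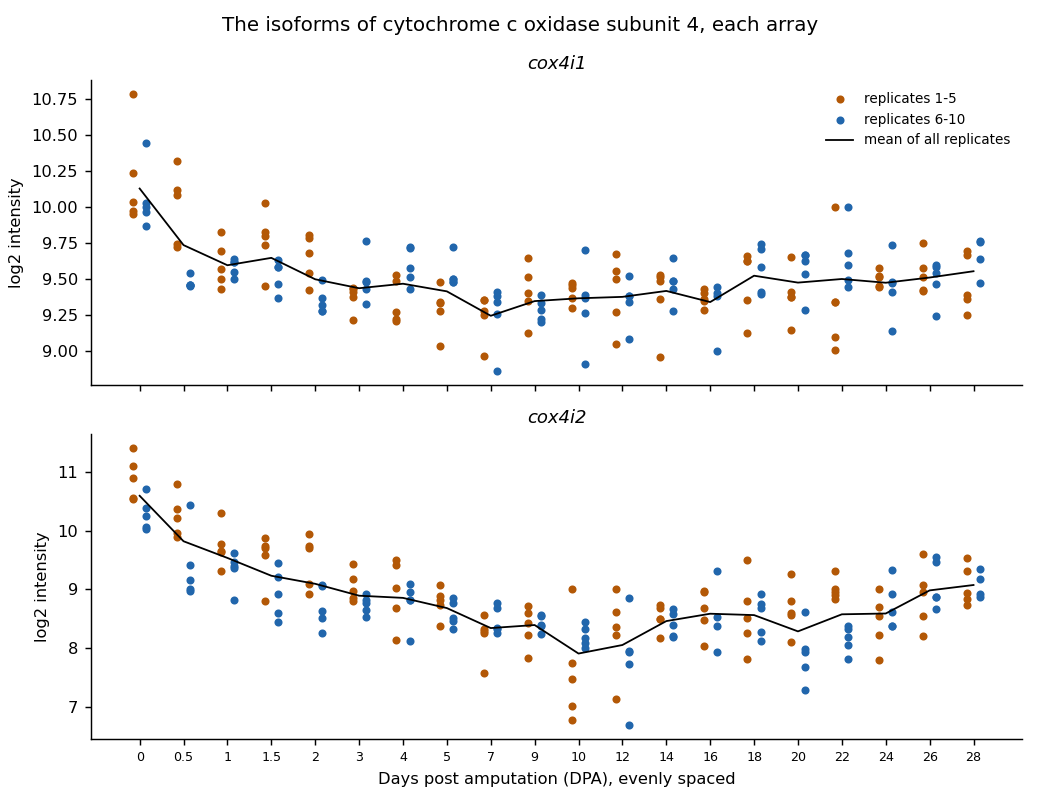
The log2 intensity of *cox4i1* (upper panel) and *cox4i2* (lower panel) in each array against days post amputation, with replicates 1 to 5 and 6 to 10 in different colours and the mean as a line. *cox4i2* fell from a median of 10.55 at 0 DPA to 8.05 at 10 DPA and was at 8.94 at 28 DPA, and *cox4i1* went from 10.01 to 9.64 at 28 DPA.

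Of the other genes grouped with complex IV, only *cox7a2l*, named after its values were seen, was called. It was called lower at 11 times, with -0.62 at 9 DPA and -0.70 at 28 DPA. The nuclear subunits *cox5a*, *cox5b*, *cox6c*, *cox7b* and *ndufa4* were lower on adjusted p alone at all 19 times and were never called, with lowest differences between -0.37 and -0.58. The gene *cox6a1*, the form of subunit 6A found in most mammalian tissues, moved least of all members by the probe used. It ran from 12.82 through a median of 13.03 to 13.27 on day 0, and its largest difference was -0.17 at 0.5 DPA (limma adjusted p = 0.1204). A second, dimmer probe of *cox6a1* was called lower at 7 DPA, with -0.66 (limma adjusted p = 0.0047), and gave -0.54 at 3 DPA and -0.34 at 28 DPA, under the fold minimum.

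Among the assembly factors, *cox17*, a copper chaperone for complex IV, was called lower at all times from 3 DPA on. Its arrays ran from 10.70 through a median of 10.90 to 11.60 on day 0, from 10.25 through 10.49 to 10.74 at 2 DPA and from 9.52 through 9.75 to 9.97 at 14 DPA. The difference was -0.44 at 2 DPA (limma adjusted p = 0.0021), under the fold minimum, -1.18 at 14 DPA (limma adjusted p = 1.161e-09) and -1.14 at 28 DPA (limma adjusted p = 1.188e-08). Day 0 overlapped 2 DPA and not 14 DPA.

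The assembly factor *cox16* fell early and then spread. It ran from 9.36 through a median of 10.23 to 10.62 on day 0, from 8.99 through 9.25 to 9.58 at 3 DPA and from 8.53 through 9.64 to 10.18 at 28 DPA. The ranges overlapped, and the difference was -0.64 at 2 DPA (limma adjusted p = 0.0011), -0.90 at 3 DPA and -0.63 at 28 DPA (limma adjusted p = 0.0107). A second probe of *cox16* had smaller differences and no call, with -0.20 at 2 DPA (limma adjusted p = 0.0756), -0.32 at 3 DPA and -0.40 at 28 DPA. The complex I assembly factor *ndufaf2* was, besides *cox4i2*, the only member called at 0.5 DPA, with -0.61 (limma adjusted p = 1.751e-04). The copper factor *cox11* was among the members that moved least, from -0.32 at 1 DPA to 0.32 at 24 DPA, and *ndufaf4* passed at no time on either rule. The factors *ndufaf1*, *ndufaf3*, *cox15* and *cox18* were lower on adjusted p alone at 18, 12, 12 and 5 times, and *cox19* at 1, with no call.

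Neighbouring times were also compared. In each of the 18 intervals between neighbouring times from 0.5 DPA on, limma called 0 of the 64 genes. Of all probes at most 0.913% were called lower and 1.64% higher in any of these intervals (both from 2 to 3 DPA), so the count is near the background. The intervals include those from 0.5 to 2 DPA, over which the calls against day 0 went from 2 to 23. On adjusted p alone 1 was lower, *cox17* from 2 to 3 DPA with -0.27 (limma adjusted p = 0.0334, 3.77% of all probes). In that interval both replicate sets switch code letters, so time and letters cannot be told apart. At an unadjusted p under 0.05 up to 10 genes were lower in an interval (2 to 3 DPA) and up to 7 higher (22 to 24 DPA). The share of all probes at an unadjusted p was not counted, so such counts, here and below, have no background beside them.

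From 3 to 9 DPA, before a bud was visible, limma called 0 genes lower and 0 higher, against 2.91% and 2.4% of all probes, and the methods' t-test after adjustment called 0. On adjusted p alone 7 were lower (5.61% of all probes) and 2 higher (9.31%), and at an unadjusted p under 0.05 these were 12 and 4. The lower ones were *cox4i2* (-0.50), *cox17* (-0.34), *ndufa3* (-0.21), *uqcrb* (-0.19), *ndufs4* (-0.19), *ndufa9* (-0.16) and *uqcrfs1* (-0.16), and the higher ones were *cox7a2* (0.25) and *cox11* (0.19).

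From 10 to 18 DPA, as the bud grew, limma called 0 genes lower (3.75% of all probes) and 1 higher (2.56%). That gene was *ndufb1*, with 0.94 (limma adjusted p = 0.0359), whose arrays fall into separate bands, as given above. On adjusted p alone 10 genes were higher, against 13.7% of all probes, and none lower, and at an unadjusted p under 0.05 there were 16 and 3. Besides *ndufb1* these were *ndufa11*, *cox19*, *ndufs1*, *cox15*, *ndufv1*, *ndufv3*, *ndufab1*, *ndufs4* and *ndufa2*, with differences from 0.13 to 0.36.

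From 20 to 28 DPA, from late bud to the flattened palette stage, limma called 0 genes lower (0.978% of all probes) and 1 higher (0.449%), and at an unadjusted p under 0.05 there were 1 and 5. The gene called was *cox4i2*, with 0.79 ± 0.20 (SE, limma adjusted p = 0.0414). Replicates 1 to 5 gave 0.40 and replicates 6 to 10 gave 1.18, and neither was called alone.

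From 0 to 2 DPA, where both replicate sets keep their code letters, 51 genes were lower on adjusted p alone, against 17.2% of all probes. None was called higher by limma (6.7% of all probes) or by the methods' t-test, and 1, *ndufb3*, was higher on adjusted p alone (15.9%), as 1 was at an unadjusted p under 0.05. Replicates 1 to 5 alone gave 16 genes called lower, and replicates 6 to 10 gave 29. The share of all probes called in each set alone was not counted, in this or any other comparison. The difference between the sets was tested as an interaction in limma, and from 0 to 2 DPA 0 of the 64 genes and 0 of all probes passed. The smallest adjusted p among the 64 genes was 0.276. As no probe passed, this result does not show that the sets were alike.

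From 0 to 28 DPA, where replicates 6 to 10 changed letters, the calls to a lower level numbered 24 for replicates 1 to 5 and 28 for replicates 6 to 10. The interaction passed for 8 of the 64 genes and for 1,390 of all 20,035 probes. For these 8 genes, *cox11*, *cox19*, *cox7a2l*, *cyc1*, *cycs*, *ndufa8*, *ndufs3* and *sdhd*, the difference from day 0 depended on the set, by the probe used. Code series and replicate set cannot be told apart for this comparison.

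For some genes with a second probe, the probes did not tell the same story, and these are named after their values were seen. For *cycs*, cytochrome c itself, the brighter probe gave -0.23 at 2 DPA and -0.39 at 28 DPA with no call at any time. The other gave -1.16 (limma adjusted p = 0.0011) and -2.11 (limma adjusted p = 2.756e-04), with arrays from 4.34 to 7.29 at 28 DPA. Its means went from 8.21 on day 0 to 5.001 at 28 DPA in replicates 1 to 5, and from 7.82 to 7.05 in replicates 6 to 10. By the brighter probe these sets differed from day 0 by 0.34 and -1.16, so the larger fall was in the other set. For *cox7a2l*, which joins complexes III and IV into supercomplexes in mammals, the brighter probe gave -0.70 at 28 DPA and the other -3.02 (limma adjusted p = 1.019e-06). The arrays of that dimmer probe ran from 4.68 to 7.78 at 28 DPA. Its means went from 10.04 on day 0 to 5.98 in replicates 1 to 5, and from 9.38 to 7.59 in replicates 6 to 10. At 28 DPA both probes of *cox7a2l* were called lower, and of *cycs* only the dimmer one.

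The complex I core gene *ndufs1* was at -0.70 at 2 DPA by the probe used and at -0.28 by the other, and at 28 DPA these were -0.34 and 0.03. For *ndufb7* the other probe gave -0.29 and -0.37 at these times against -0.61 and -0.67. Which transcript or copy each probe binds was not tested.

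Skeletal muscle genes moved in the same samples, on another time scale. Their median difference from day 0 was -0.52 at 0.5 DPA and -1.48 at 2 DPA. The later medians were -4.64 (9 DPA), -7.998 (18 DPA) and -7.77 (28 DPA). Of the 28 genes, 2 were called lower at 0.5 DPA (1.35% of all probes), 24 at 2 DPA (7.54%) and 27 at 28 DPA (8.31%). From 10 to 18 DPA the muscle genes had a median difference of -1.40 and 18 of 28 were called lower (3.75% of all probes), while the median over the respiratory chain genes was 0.06. The part of muscle in the early fall of the respiratory chain genes was not tested.

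Genes of other cell types also differed from day 0. They were found by symbol, and the paper names probes for other listed genes, such as *mpo* and *hba2*, that were missed. The median log2 difference at 2 DPA was 0.92 over 5 macrophage genes and 2.17 for *lyz*, the 1 of 5 listed neutrophil genes found. It was -1.05 over 2 fat cell genes, -0.61 over 5 cartilage genes and 0.14 over 6 epidermal genes. Over 2 of 7 listed erythrocyte genes, of which 1 was lower, it was 0.45, and over 8 proliferation genes it was -0.31. At 28 DPA these were 0.11, -0.57, -3.81, 0.36, 0.96, -1.36 and 1.30, and the respiratory chain median was -0.49. Their part in the difference was not tested.

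Other mitochondrial genes went different ways. A list of 17 genes held those of the citric acid cycle together with *pdhb*, *pdhx*, *dlat* and *pc*, which feed pyruvate into it. Of these 17 genes 5 were called at 2 DPA (7.54% of all probes lower) and 7 at 28 DPA (8.31%), all lower. The median was -0.47 at both times. Fumarase, *fh*, was at -0.74 at 2 DPA, -1.24 at 9 DPA and -0.91 at 28 DPA, and the isocitrate dehydrogenase *idh2* at -0.63, -0.94 and -0.86. These genes thus had falls of the same order as the respiratory chain genes.

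Of 11 carriers and porins of the mitochondrial membranes 4 were called lower at 2 DPA (7.54% of all probes) and 4 at 28 DPA (8.31%), with 1 higher at 28 DPA (10.7%). The adenine nucleotide carrier *slc25a4*, the form of mammalian muscle and heart, fell by 1.11 up to 2 DPA, by 5.46 up to 9 DPA and by 7.77 up to 28 DPA. The aspartate-glutamate carrier *slc25a12* was at -1.35 at 2 DPA and -1.59 at 28 DPA, and its relative *slc25a13* was at 0.99 at 28 DPA (limma adjusted p = 1.777e-07). The muscle creatine kinase *ckm*, which is also on the muscle list, was at -0.81 at 2 DPA and -9.14 at 28 DPA, and the brain form *ckb* was at 1.55 at 9 DPA and -0.83 at 28 DPA.

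Of 13 regulators of mitochondrial biogenesis 1 was called at 2 DPA, to a higher level (6.7% of all probes). At 28 DPA 1 was called lower (8.31%) and 4 higher (10.7%), with medians of -0.01 and 0.22. The coactivator *pprc1* was at 1.53 at 2 DPA (limma adjusted p = 6.575e-06) and 0.98 at 28 DPA, the mitochondrial RNA polymerase *polrmt* at 0.91 at 28 DPA, and the ribosomal RNA methyltransferase *tfb1m* had a lowest called value of -0.64. Of 18 import and chaperone genes 2 were called at each of 2 and 28 DPA, all higher, near the 6.7% and 10.7% of all probes, among them *grpel2* with 0.93 at 2 DPA and the chaperonin *hspd1* with 0.62 at 28 DPA.

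Of 17 further assembly factors 4 were called lower at each of 2 and 28 DPA (7.54% and 8.31% of all probes), with medians of -0.30 and -0.05. The ATP synthase assembly factor *tmem70* was at -0.83 at 0.5 DPA and -0.76 at 2 DPA, and the inner membrane insertase *oxa1l* at -0.64 at 2 DPA. The only gene of mitochondrial DNA measured, *cox1*, was at a mean of 14.57 on day 0, 14.55 at 2 DPA and 14.53 at 28 DPA, close to the upper end of the scale, where the array may not resolve a difference.

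The genes outside the set whose course was most like the median course of the respiratory chain genes were taken by Pearson's r over the 20 time-point means, as a description. They were *gcdh* (0.953), a dehydrogenase of lysine breakdown in the mitochondrion, *prdx3* (0.949), a mitochondrial peroxidase, *smyd2* (0.946), a lysine methyltransferase, *aimp1* (0.942), a scaffold of tRNA synthetases, and *ldhb* (0.933), a subunit of lactate dehydrogenase. The means of *ldhb* were 12.92 on day 0, 11.90 at 2 DPA and 12.03 at 28 DPA, and those of *prdx3* 11.97, 11.38 and 11.37.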

How the data were processed

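The authors normalized the arrays by RMA in Affymetrix Expression Console, whose version is not given in the sources used here, and deposited log2 values for 20,080 probes, which were used as deposited. Symbols came from GEO's platform annotation, which can be old. The 45 control probes were left out, and 20,035 were tested. For 2 arrays at 0.5 DPA another label gives a different time, and they were kept at 0.5 DPA. Pairs of times were fitted by lmFit and eBayes of limma 3.58.1 (R 4.3.3) to the arrays of both times only, with Benjamini-Hochberg adjustment over all probes. The tests were checked on simulated data. Genes were named by a rule: the largest falls and rises of each class and comparison, isoform pairs and the least moved members. Further members were given outside this rule, and only some of these are marked as named after their values were seen. The members and lists were chosen with earlier results of these data known. Alternatives covered the fold minimum, the methods' t-test, filtering of dim probes, median centring, quantile normalization, averaged probes, each replicate set alone, a replicate block, and the arrays of conflicting labels left out. The number of arrays limits the precision. Python 3.11.15, scipy 1.17.1 and matplotlib 3.10.9 were also used.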

Additional observations from a re-analysis of the deposited data

Results flagged for a closer look

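For 8 of the 64 genes, the difference between 0 and 28 DPA was not the same in replicates 6 to 10 as in replicates 1 to 5, by the interaction in limma. Of all 20,035 probes, 1,390 passed the same test, so such a difference was not particular to these genes. The difference in replicates 6 to 10 minus that in replicates 1 to 5 was -1.51 for *cycs* (adjusted p = 0.0013), -0.92 for *cox19* (0.0036), -0.87 for *sdhd* (0.0161), -0.86 for *ndufa8* (0.0059), -0.59 for *cyc1* (0.0184), -0.50 for *ndufs3* (0.0304), -0.44 for *cox11* (0.0116) and 0.46 for *cox7a2l* (0.0156). These values are of the probe used, and by the dimmer probe *cycs* fell further in replicates 1 to 5. Replicates 6 to 10 changed code letters between these times, so letters and set cannot be told apart.

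Single arrays stood apart from the rest of their time point in 16 of 160 groups examined. The measure was the gap to the next array as a share of the range, which chance flags in about 1 in 20 groups of normal values. The groups share arrays and are not independent, so 16 cannot be read as an excess. For *cox4i1* the arrays that stood apart were the highest of 3 DPA (9.766) and the lowest of 14 DPA (8.961) and 16 DPA (9.004), and for *cox4i2* the lowest of 7 DPA (7.573). For *ndufa5* they were the highest arrays of 0 DPA (12.06), 9 DPA (10.52), 12 DPA (10.29) and 22 DPA (10.79). For *ndufb3* they were the lowest of 7 DPA (6.062) and 10 DPA (5.911) and the highest of 22 DPA (7.509). The highest array of *cox7a2* at 22 DPA (13.09), of *cox17* at 0 DPA (11.6) and of the median over all members at 3 DPA (11.11), 20 DPA (11.11) and 22 DPA (11.1) also stood apart.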

How the results depend on the processing

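The calls below day 0 depended mainly on the fold minimum. Summed over the 19 times, 440 calls became 941 with no fold minimum, against 16.3% of the results for all probes. They became 60 at 2-fold and 734 at a log2 minimum of 0.4, a value chosen after seeing the data. Among the alternatives of this section, the share of all probes was counted for no fold minimum only. At 2 DPA 23 became 51, 1 and 37, and at 28 DPA 26 became 50 and 4 (none and 2-fold). From 3 to 9 DPA 0 became 7 with no minimum and 1 at 0.4, with averaged probes or with replicates 1 to 5 alone.

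Calls above day 0 were few. The 11 became 42 with no minimum, against 23.5% of the results for all probes. They became 1 at 2-fold, 23 at 0.4, 26 in replicates 1 to 5 and 1 in replicates 6 to 10. At 2 DPA 0 became 1 with no minimum, at 0.4, after quantile normalization and in replicates 1 to 5. From 3 to 9 DPA 0 became 2 with no minimum and 1 in replicates 1 to 5. From 10 to 18 DPA 1 became 10 with no minimum, 2 without dim probes and with median centring, and 0 at 2-fold, by the t-test at either threshold and in replicates 1 to 5. From 20 to 28 DPA 1 became 0 at 2-fold, by the adjusted t-test, with the replicate block and in either set alone. At 28 DPA 1 became 3 with no minimum, 2 at 0.4 and in replicates 1 to 5, and 0 at 2-fold and in replicates 6 to 10.

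The isoform difference from 3 to 9 DPA was -0.0997 in replicates 6 to 10, and that from 20 to 28 DPA 0.3226 in replicates 1 to 5. From 10 to 18 DPA it passed with averaged probes (0.6533) and the replicate block (0.4991). Of the summary results under the alternatives, 40 counts moved by more than 1.5 times, 2 isoform tests lost their call and 2 gained it (all given above), and 168 kept their side of the threshold or lay within 1.5 times the count. A further 20 results, each of 1 named gene in 1 comparison, were followed through the alternatives, and some genes entered more than once. In these checks 244 kept their call and 36 lost it, 16 of these at 2-fold, and none reversed.

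The arrays share only a replicate number. In no comparison did all same-numbered pairs correlate above 0.1 (6 of 10 from 0 to 2 DPA, 8 of 10 from 3 to 9 DPA, where all were positive, and 3 of 10 from 10 to 18 DPA), and at most 2 arrays correlated best with their own number. With the replicate block 439 calls were lower and 12 higher. Arrays give no counts, so their number and the signal over background limit what can be seen.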
